A study of Nothobranchius furzeri with 15 samples.

Results

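Keratins are the intermediate filament proteins of epithelial cells, and each filament pairs a type I with a type II keratin. In mammals, Krt5 is the type II keratin of basal epidermal cells, and Krt8 and Krt18 are the partners of simple epithelia, among them those of liver and gut. The transcription factor tp63 is needed to form and keep the basal layer of the epidermis in mammals and zebrafish, and epcam codes for an adhesion molecule on the surface of many epithelial cells. In zebrafish, krt4 is widely used to mark the outer epidermis.

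The genes described here are 6 zebrafish genes of that set (krt4, krt5, krt8, krt18a.1, tp63 and epcam), looked up by their zebrafish Ensembl identifiers in a transcript catalogue of the annual killifish Nothobranchius furzeri. All 6 identifiers were found, and they belong to 7 of the 18311 catalogue entries, since krt18a.1 has 2 entries. Expression was measured by RNA sequencing of homogenised skin, liver and brain, with 5 samples of each, 15 in all. Every fish was of strain GRZ, a short-lived laboratory strain, and 12 weeks old, with no treatment named in the labels. Sample titles number the skins 5, 6, 7, 13 and 14, and both the livers and the brains 10, 11, 13, 14 and 15. These numbers name the samples below, and where 5 values are given they follow that order. Sample sex is not given in the labels.

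The entries for krt8 (Nofu_gene_3_0009435, ENSDARG00000058358), tp63 (Nofu_gene_3_0018421, ENSDARG00000044356), epcam (Nofu_gene_3_0005868, ENSDARG00000040534) and 1 krt18a.1 entry (Nofu_gene_3_0009428, ENSDARG00000018404) are best bidirectional hits, that is, killifish and zebrafish gene are each other's best match. The entries for krt4 (Nofu_gene_3_0009433, ENSDARG00000017624) and krt5 (Nofu_gene_3_0009434, ENSDARG00000058371) and the second krt18a.1 entry (Nofu_gene_3_0009430) are not, so their zebrafish names are less certain. Entry lengths ran from 1665 bases for epcam to 4616 bases for krt5, around a catalogue median of 2372. The 5 keratin entries have catalogue numbers close to one another. In the RefSeq annotation of assembly NfurGRZ-RIMD1, genes with the symbols krt18a.1, krt8 and krt5 lie on 1 chromosome. There krt8 and krt5 are direct neighbours, and 1 long non-coding RNA gene lies between krt18a.1 and krt8. No symbol krt4 is listed in it. How reads matching several keratin genes were counted is not given in the sources used here, so levels of similar keratin entries may share reads.

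Libraries held 17.7 to 30.8 M counts, and all 7 entries passed the filter on low counts, as did 16611 entries in all. Levels between samples are given in CPM, counts relative to the size of the library, scaled by TMM, which corrects for differences in RNA composition. The TMM factors averaged 1.01 in skin, 0.598 in liver and 1.68 in brain, so this scaling weighs on any modest difference between tissues. Skin 7 stood apart from the other skins, with 502 entries that had at least 1 CPM and at least 4-fold the mean level of the remaining skins, against 5 to 33 such entries in the other skins. Liver 14 and liver 15 had 203 and 251 such entries, against 10 to 150 in the other livers. Of the 7 entries described here, 1 was raised in this way in skin 7 and 2 in liver 14, and they are given with and without these libraries.

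In skin, 6 of the 7 entries were abundant in each of the 5 samples. Levels of different genes are compared within a tissue in deposited RPKM, reads relative to the length of the entry and the size of the library. The type II keratins krt8 and krt5 led, at 1526 ± 245 and 1517 ± 276 RPKM in skin (SD, n = 5), ranks 56 and 59 of all 18311 entries by mean RPKM, and their levels did not differ beyond their spread. Next came krt4 at 464 ± 215 RPKM, the best-hit krt18a.1 entry at 397 ± 76.4 RPKM and epcam at 300.1 ± 58.8 RPKM, neighbours whose samples overlapped. The regulator tp63 stood lower, at 77.3 ± 20.8 RPKM and rank 684. The second krt18a.1 entry had no common level in skin, with 0.671 to 2.15 RPKM in 4 samples and 829 RPKM in skin 7.

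The order was different in the other organs. In liver krt8 (381 ± 117 RPKM) and the best-hit krt18a.1 entry (327 ± 93.7 RPKM) led and overlapped, epcam stood at 37.0 ± 14.6 RPKM, and krt5 and tp63 stood at 5.17 ± 2.75 and 0.504 ± 0.114 RPKM (SD, n = 5). The second krt18a.1 entry ranged from 0.418 to 278 RPKM in liver, with a mean of 62.8 RPKM, above that of epcam, or 9.08 RPKM without liver 14. The krt4 entry ranged from 1.90 to 98.2 RPKM in liver. In brain krt8 reached 186 ± 3.41 RPKM, rank 279 of all entries, and the best-hit krt18a.1 entry 128 ± 18.6 RPKM. The other 5 entries had mean levels under 10 RPKM in brain, from 8.46 ± 1.53 for krt5 to 0.597 ± 0.178 for tp63.

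**Figure D1:**
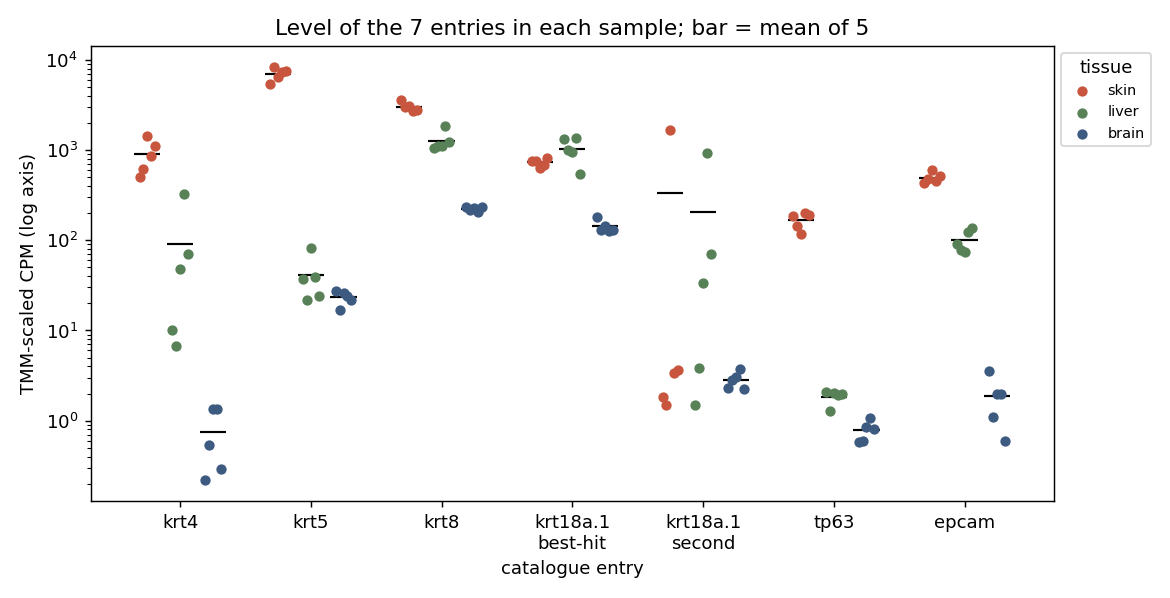
TMM-scaled CPM (log axis) of the 7 catalogue entries in each of 5 skin, 5 liver and 5 brain samples; each point is a sample and each bar the mean of 5. Skin lies above both other tissues in all samples for krt4, krt5, krt8, tp63 and epcam, while the best-hit krt18a.1 entry overlaps between skin and liver and the second entry is high in skin 7 and liver 14.

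Together the 7 entries held 1.27% ± 0.180 of all catalogue counts in skin, 0.164% ± 0.0653 in liver and 0.0661% ± 0.00423 in brain (SD, n = 5). The share ran from 1.11% in skin 13 to 1.53% in skin 14. Of the counts of the 7 entries, krt5 supplied 46.1% to 62.7% in skin, 0.850% to 3.60% in liver and 4.55% to 6.67% in brain. These shares are not corrected for length, and the krt5 entry has 4616 bases against 1665 to 2206 for the others. By RPKM, krt5 and krt8 were alike in skin. Since these are bulk samples, fewer cells of a type and less RNA per cell cannot be told apart.

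**Figure D2:**
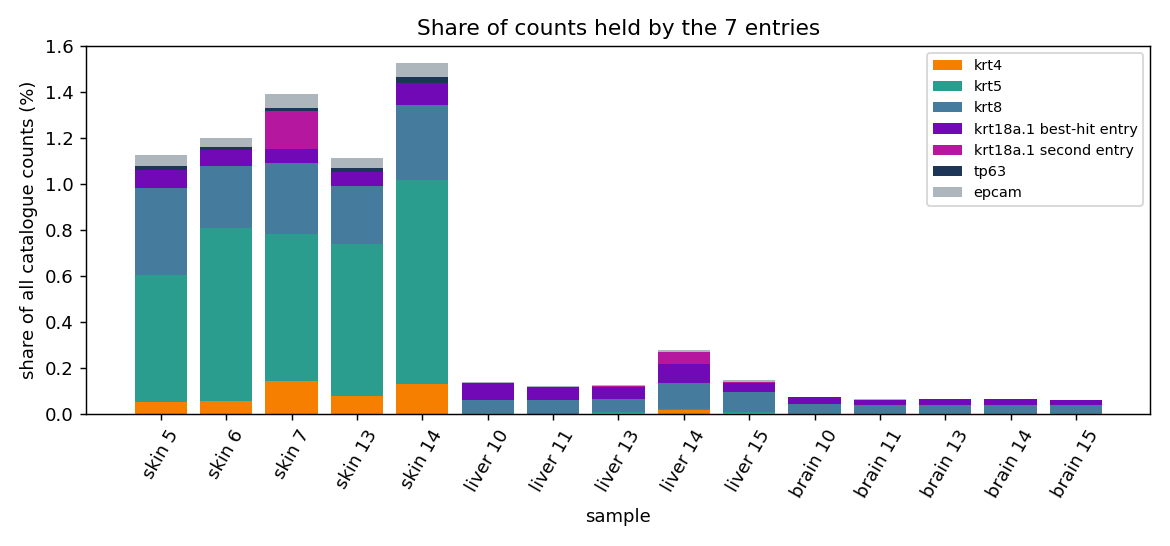
Share of all catalogue counts (%) held by the 7 entries in each of 15 samples, as stacked bars that start at 0. In skin krt5 and krt8 form most of each bar, skin 7 and liver 14 show a part for the second krt18a.1 entry that the other samples of their tissue lack at this scale, and liver 14 reaches 0.279% against at most 0.150% in the other livers.

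Skin was compared with liver, and 5 of the 7 entries (krt4, krt5, krt8, tp63 and epcam) were higher in skin in the quasi-likelihood test of edgeR, at an adjusted p below 0.05. Of all entries tested, 33.5% were higher in skin under the same rule. The samples of the tissues did not overlap for these 5 entries, as for 26.4% of all entries tested in that direction. The median log2 fold change of the 7 entries was 2.30, against 0.03 over all entries tested. Neither krt18a.1 entry passed. Skin 7 and liver 14 were then left out, after their values had been seen. The 5 entries were again called higher in skin, as were 5468 of the 16693 entries tested.

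Skin was then compared with brain, and 7 of the 7 entries were higher in skin, where 35.3% of all entries tested were. Samples did not overlap for 6 of them, against 31.5% of all entries, and the exception was the second krt18a.1 entry. The median log2 fold change was 7.75 for the 7 entries and -0.03 over all entries. At least 4-fold higher levels in skin than in both other tissues, with both tests passed, were found for krt4, krt5, tp63 and epcam, and for 8.45% of all entries tested. The comparisons share their skin libraries. Without skin 7, 6 entries were called higher in skin, as were 5642 of the 16710 entries tested in that fit. Without scaling, the median over all entries was 0.78 for skin over liver and -0.76 for skin over brain. There krt4, krt5, krt8, tp63 and epcam were called higher in skin in both, krt8 with 2.00 over liver and 3.03 over brain. Of the 16611 entries tested without scaling, 9219 were called higher in skin over liver and 3799 in skin over brain.

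**Figure D3:**
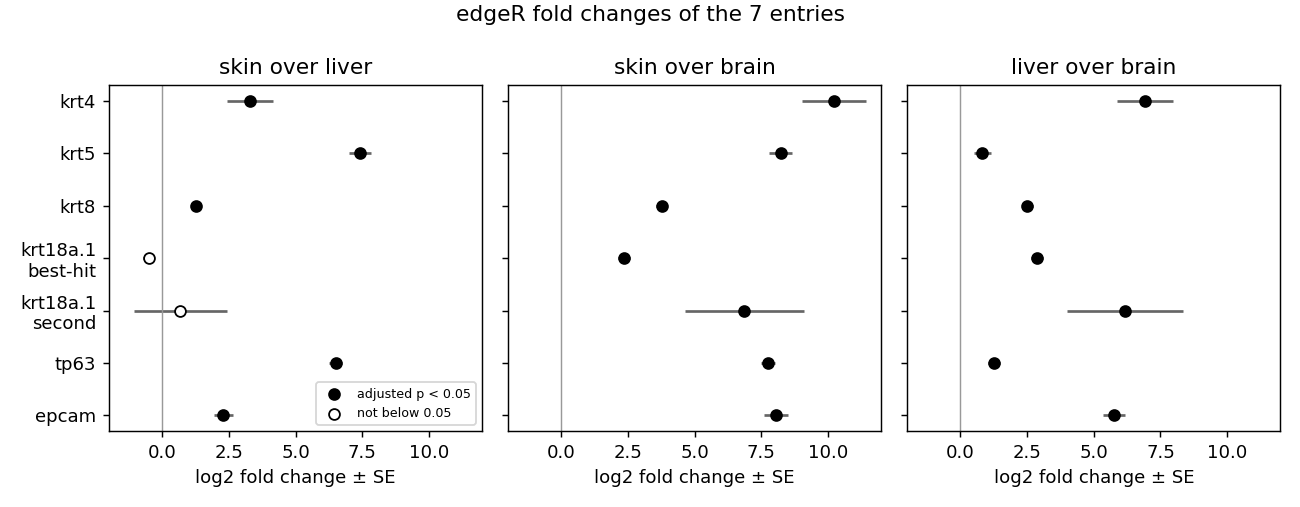
Log2 fold changes with standard errors of the 7 entries in 3 comparisons by edgeR, with filled points for an adjusted p under 0.05. Points right of 0 are higher in the tissue named first; krt5 and tp63 lie far right against both liver and brain in the skin panels and at 1.25 or less in liver over brain, where both turn negative without scaling, and the second krt18a.1 entry has the widest errors.

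The entries for krt5 and tp63 had the largest fold changes over liver of the 7 entries. Bulk skin does not show which layer of the epidermis their RNA came from. Values of krt5 were 5328, 8395, 6363, 7239 and 7571 CPM in skin, against 37.6, 21.9, 82.9, 39.4 and 23.8 CPM in liver and 27.7, 16.8, 26.3, 24.3 and 21.6 CPM in brain. All 5 skins lay far above every liver and brain, and the highest skin was 1.58 times the lowest, skin 5. The log2 fold change of krt5 was 7.41 for skin over liver (SE 0.41; adjusted p = 2.78e-10 in edgeR) and 8.22 for skin over brain (SE 0.42; adjusted p = 6.85e-11 in edgeR).

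For tp63, skin had 188, 144, 117, 202 and 192 CPM, liver 2.07, 1.29, 2.05, 1.91 and 1.95 CPM, and brain 0.573, 0.597, 0.851, 1.08 and 0.804 CPM. The lowest skin value was that of skin 7. Liver and brain levels rested on 17 to 33 and 20 to 39 counts per library, low but above 0 in each. The log2 fold change of tp63 was 6.50 for skin over liver (SE 0.24; adjusted p = 1.10e-11 in edgeR) and 7.75 for skin over brain (SE 0.26; adjusted p = 1.53e-12 in edgeR), with 6.61 and 7.86 in the absence of skin 7. Over the 15 samples, log2 CPM of krt5 and tp63 had a Pearson correlation of 0.990, a description of points that fall into 3 tissues and share their libraries.

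The keratin krt4 and the adhesion gene epcam were intermediate in liver and lowest in brain. The krt4 entry had 499, 610, 1418, 864 and 1111 CPM in skin, 10.04, 6.75, 47.9, 323 and 69.9 CPM in liver, and 0.217, 0.537, 1.35, 1.36 and 0.295 CPM in brain. Liver 14 lay highest among the livers, at 9.59 times the mean of the other 4, and skin 7 highest among the skins. Brain held 11 to 49 counts of krt4 per library. The log2 fold change of krt4 was 3.30 for skin over liver (SE 0.87; adjusted p = 0.00362 in edgeR), or 4.74 without liver 14 and 3.07 without skin 7. For skin over brain it was 10.23 (SE 1.19; adjusted p = 9.47e-07 in edgeR), rank 40 of all 16611 entries tested by fold change.

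For epcam the values were 430, 474, 601, 452 and 516 CPM in skin, 91.2, 78.6, 74.1, 124 and 135 CPM in liver, and 3.60, 1.10, 1.99, 2.00 and 0.590 CPM in brain. Skin 7 and liver 15 were the highest of their tissues, and no tissue overlapped another. The log2 fold change of epcam was 2.30 for skin over liver (SE 0.35; adjusted p = 2.82e-05 in edgeR) and 8.04 for skin over brain (SE 0.46; adjusted p = 1.86e-10 in edgeR).

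Levels of krt8 and of the best-hit krt18a.1 entry were high in all 3 organs. Skin had 3605, 3005, 3035, 2729 and 2767 CPM of krt8, liver 1053, 1104, 1103, 1850 and 1231 CPM, and brain 231, 217, 225, 204 and 236 CPM. Liver 14 stood above the other livers but below every skin. The log2 fold change of krt8 was 1.26 for skin over liver (SE 0.18; adjusted p = 1.71e-05 in edgeR), or 1.43 without liver 14, and 3.77 for skin over brain (SE 0.20; adjusted p = 9.69e-11 in edgeR).

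The best-hit krt18a.1 entry had 757, 761, 625, 680 and 819 CPM in skin, 1315, 1010, 960, 1373 and 536 CPM in liver, and 181, 131, 143, 128 and 130 CPM in brain. Skins and livers overlapped, through liver 15, the lowest liver. It was higher in skin than in brain by 2.35 on the log2 scale (SE 0.23; adjusted p = 1.25e-07 in edgeR). For skin over liver it was -0.51 (SE 0.22; adjusted p = 0.0534 in edgeR), which misses the threshold narrowly. Under 26 alternatives the adjusted p ranged from 0.00243 to 0.248, and 11 of them called the entry lower in skin than in liver. These 11 are not independent and include each fit that left out a single brain. Brain belongs to neither tissue and enters only through the joint fit. Those fits all gave -0.61, with a median over all entries of -0.07, against 0.03 in the main fit. Without liver 15 the value was -0.68 (adjusted p = 0.00243 in edgeR). Without any scaling it turned to 0.28 (adjusted p = 0.248 in edgeR), around a median of 0.78 over all entries.

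The proportion of krt8 to the best-hit krt18a.1 entry was higher in each skin than in the other organs. A ratio within a library does not depend on its scaling. In RPKM, krt8 was 4.43, 3.67, 4.51, 3.73 and 3.14 times the best-hit krt18a.1 entry in skin, against 0.744, 1.01, 1.07, 1.25 and 2.13 times in liver and 1.18, 1.55, 1.46, 1.48 and 1.69 times in brain. Each skin lay above each liver and brain, while liver and brain overlapped. The second krt18a.1 entry is not part of this ratio. In skin 7 it stood at 829 RPKM, above the best-hit entry at 339 RPKM, so there the ratio does not describe both krt18a.1 entries together. The ratio of krt5 to krt8 was 0.640 to 1.21 in skin, 0.00839 to 0.0326 in liver and 0.0335 to 0.0520 in brain, with no overlap between the tissues. No test was made of these ratios, since the pairs were chosen with results known.

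**Figure D4:**
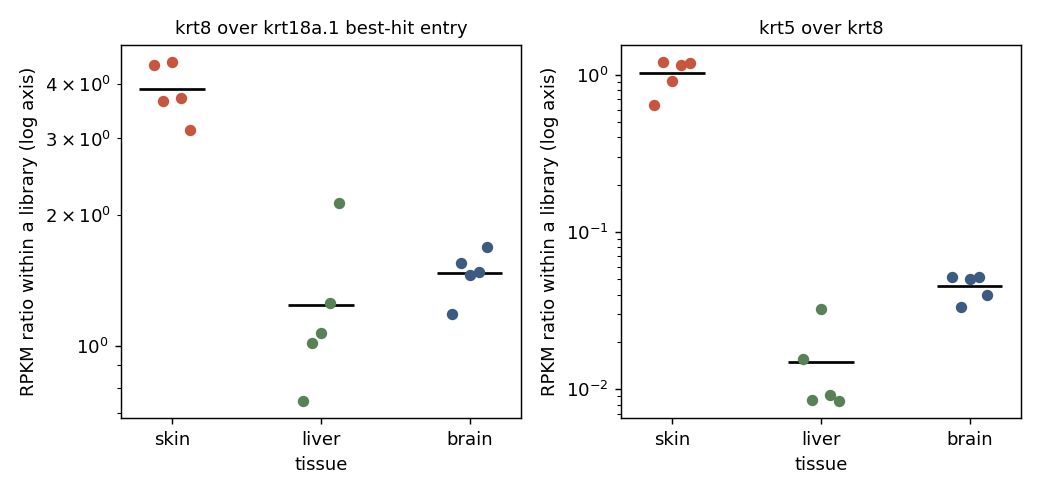
RPKM ratios within each library (log axes) of krt8 over the best-hit krt18a.1 entry and of krt5 over krt8, with 1 point per sample and the mean of 5 as a bar. The krt8 to krt18a.1 ratio is 3.14 or more in every skin and at most 2.13 in liver and brain, and the krt5 to krt8 ratio is lowest in liver.

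The second krt18a.1 entry behaved unlike the best-hit entry. Skin 7 held 1645 CPM of it, 36848 counts, against 1.85, 1.5, 3.34 and 3.65 CPM in skins 5, 6, 13 and 14, or 28 to 91 counts. Liver 14 held 922 CPM, against 1.5, 3.79, 33.4 and 70.9 CPM in livers 10, 11, 13 and 15. The brains were close to one another, at 2.31, 2.83, 3.08, 3.72 and 2.25 CPM. Skin 7 was thus 636 times, and liver 14 33.6 times, the mean of the other samples of its tissue.

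With all libraries, the second krt18a.1 entry was called higher in skin than in brain (log2 fold change 6.86, SE 2.24, adjusted p = 0.0124 in edgeR). Without skin 7 the value was -0.12 (adjusted p = 0.939 in edgeR), so the call rests on that library. Against liver it was 0.68 (SE 1.74; adjusted p = 0.751 in edgeR) with all libraries, -6.31 without skin 7 (adjusted p = 0.00179 in edgeR), 3.59 without liver 14 (adjusted p = 0.112 in edgeR) and -3.40 without skin 7 and liver 14 (adjusted p = 0.00257 in edgeR). With the counts of both krt18a.1 entries summed, skin over liver was -0.22 (SE 0.37; adjusted p = 0.624 in edgeR).

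Skin 14, which carries the same title number as liver 14, had 3.65 CPM of the second krt18a.1 entry. In skin 7 and liver 14 the best-hit krt18a.1 entry stood at 625 and 1373 CPM, the lowest skin and the highest liver. The krt4 entry was also highest in these libraries of its tissues, and in liver the 3 highest samples were the same for krt4 and the second krt18a.1 entry, in the order liver 14, liver 15 and liver 13. In liver 14, krt5 stood at 39.4 CPM and tp63 at 1.91 CPM, both inside the range of the other livers. The RPKM ratio of krt4 to krt5 was 0.169 to 0.519 in skin, against 0.622, 0.718, 1.35, 19.1 and 6.83 in livers 10, 11, 13, 14 and 15. Each liver lay above each skin in this ratio, and liver 14 highest. Other catalogue entries were raised in skin 7 and in liver 14 as well, and their part in the result was not tested.

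**Figure D5:**
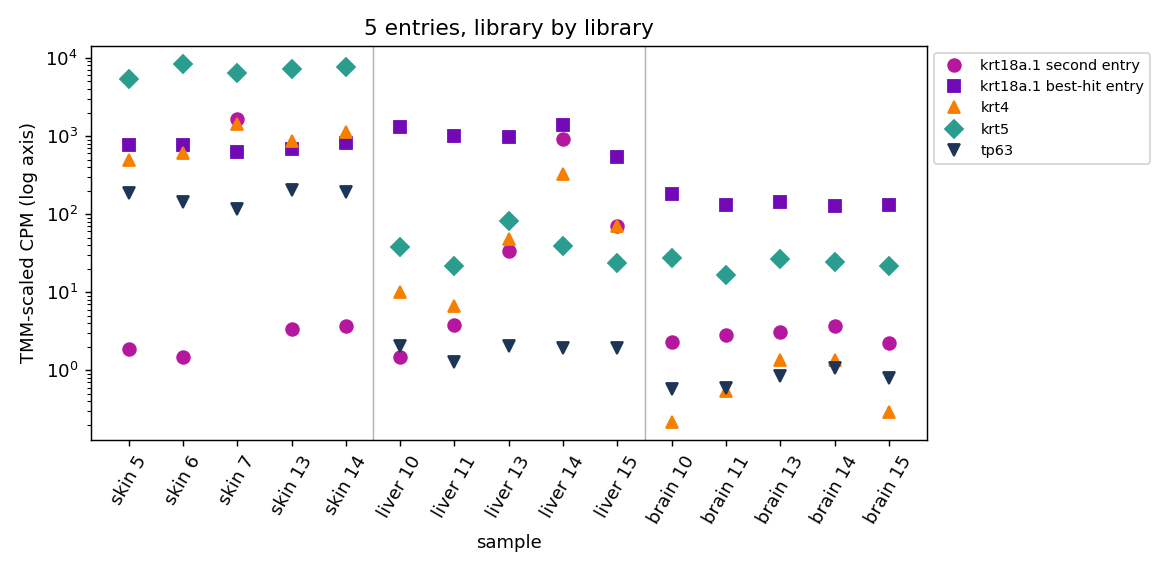
TMM-scaled CPM (log axis) of 5 entries in each of the 15 samples, with skin, liver and brain from left to right. The second krt18a.1 entry reaches 1645 CPM in skin 7 and 922 CPM in liver 14, where krt5 and tp63 stay near the other samples of their tissue, and krt4 and the second krt18a.1 entry vary widely between livers.

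Liver was compared with brain, and 7 of the 7 entries were called higher in liver, where 36.0% of all entries tested were, although krt5 and tp63 turned with the scaling. Samples did not overlap for 5 of them (28.2% of all entries), the exceptions being krt5 and the second krt18a.1 entry. The median log2 fold change of the 7 entries was 2.86, against -0.01 over all entries. The largest was that of krt4, at 6.93 (SE 1.05; adjusted p = 1.69e-05 in edgeR), or 5.50 without liver 14. It was followed by the second krt18a.1 entry at 6.18 (SE 2.17; adjusted p = 0.0175 in edgeR), a call lost without liver 14 (3.28, SE 1.77, adjusted p = 0.108 in edgeR). Without both skin 7 and liver 14 the value was again 3.28, and it was called (SE 0.76; adjusted p = 0.00112 in edgeR). Skin 7 belongs to neither tissue and enters this comparison only through the joint fit. The value of epcam was 5.75 (SE 0.41; adjusted p = 2.32e-09 in edgeR), and those of the best-hit krt18a.1 entry and krt8 were 2.86 (SE 0.24; adjusted p = 1.25e-08 in edgeR) and 2.51 (SE 0.19; adjusted p = 4.49e-09 in edgeR). Without scaling, where the median over all entries was -1.49, these values were 5.48 for krt4, 4.72 for the second krt18a.1 entry, 4.29 for epcam, 1.35 for the best-hit krt18a.1 entry and 1.03 for krt8, each at an adjusted p below 0.05 in edgeR.

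For krt5 and tp63 the difference between liver and brain was small and depended on the scaling. With TMM the log2 fold change was 1.25 for tp63 (SE 0.22; adjusted p = 9.18e-05 in edgeR) and 0.82 for krt5 (SE 0.31; adjusted p = 0.0273 in edgeR). Without scaling they were -0.23 for tp63 (adjusted p = 0.399 in edgeR) and -0.71 for krt5 (adjusted p = 0.0288 in edgeR), both above the median over all entries. The krt5 call was also lost without liver 13, the highest liver (0.40, adjusted p = 0.143 in edgeR), and without brain 11 (0.77, adjusted p = 0.0522 in edgeR).

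Within tissues, the entries varied unequally. The SD of log2 CPM over the 5 skins had a median of 0.25 over the 7 entries, from 0.15 for the best-hit krt18a.1 entry to 4.22 for the second, against 0.26 over the 9372 tested entries with a mean of at least 10 CPM in skin. In liver the median was 0.54 over the 7 entries and 0.35 over the 8748 entries at that level, with 2.25 for krt4 and 3.63 for the second krt18a.1 entry. In brain krt8 varied least, with an SD of 0.08, and krt4 most, with 1.06 at 11 to 49 counts per library.

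Outside these genes, the entry most like krt8, the highest in skin by RPKM, was Nofu_gene_3_0017037 (ENSDARG00000023673), with a Pearson correlation of log2 CPM of 0.9923 over the 15 samples. The entries ranked 2 and 3 came close, at 0.9917 and 0.9916. Its mean level was 67.5 ± 13 CPM in skin and 11.4 ± 2.07 CPM in liver (SD, n = 5), and it had 13 to 47 counts per library in brain. The entry most like tp63 was Nofu_gene_3_0010648 (ENSDARG00000090560), with a correlation of 0.996. It stood at 94.1 ± 17.3 CPM in skin, 2.24 ± 0.666 CPM in liver and 0.953 ± 0.107 CPM in brain. The samples fall into 3 tissues, which set most of such a correlation, and no gene names are paired with these identifiers in the sources used here.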

How the data were processed

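Total RNA of homogenised organs was sequenced from libraries made with an Illumina TruSeq RNA kit, per the labels' protocols. Tools listed in the submitters' processing notes, with no role stated, are featureCounts 1.4.3-p1, TopHat2 2.0.6, CASAVA 1.8.2 and Bowtie. Not given in the sources used here were build, annotation, strandedness and the handling of multiply matching reads. The authors deposited raw counts per catalogue entry and RPKM values. Counts, column totals and RPKM imply 1 length per entry (100% of RPKM values reproduced within a relative tolerance of 1e-06). The flag for best bidirectional hits is another deposited column, explained per the file headers. A further 60 RPKM columns belong to no sample here and were not used. No test was run on the genome table, since its gene models could not be matched.

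Counts were tested with edgeR 4.0.16 in R 4.3.3: filterByExpr (count minimum 10), TMM, and 1 quasi-likelihood fit of all 15 samples with a term per tissue. P-values were adjusted over all 16611 entries (Benjamini-Hochberg, threshold 0.05). The SE is the size of the log2 fold change divided by the square root of F. Alternatives used DESeq2 1.42.0 on the counts and limma 3.58.1 on log2(RPKM + 1) or log2(RPKM + 0.1), with entries of at least 1 RPKM in 5 samples or with no filter. The procedure was also run on simulated counts with the same spread for every entry, unlike these data, and no result here rests on that run. Samples are described as biological replicates in the series' design text, and no batch is labelled. No pair of libraries matched within counting noise.

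The members and lists were chosen with earlier results of these data known. All 7 entries are named. The most similar entry was taken for the highest member in skin by RPKM and for tp63, by the correlation of log2 CPM (prior count 2). Lists of other epithelial genes and of cell type markers could not be used, since 0 catalogue or zebrafish identifiers occur in the RefSeq table, so the tissues were checked against no markers but these. Sequences were not used here.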

Additional observations from a re-analysis of the deposited data

Results flagged for a closer look

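In 36 groups of 5 samples (levels of the 7 entries, their share of counts and 4 ratios, in each tissue), the sample farthest from the others was examined by Dixon's ratio, with a critical value of 0.71. It was exceeded in 11 groups. Chance gives about 1 in 20, or 1.8, for independent groups of normally distributed values. These groups share libraries and entries, and their values were not log-transformed, so 1.8 is only a rough guide.

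Liver 14 stood out with 323 CPM of krt4 (next liver 69.9), 1850 CPM of krt8 (next 1231) and 922 CPM of the second krt18a.1 entry (next 70.9). It also stood out with a ratio of the second to the best-hit krt18a.1 entry of 0.624 (next 0.123) and with a share of 0.279% of counts for the 7 entries (next 0.150%). Skin 7 stood out with 1645 CPM of the second krt18a.1 entry (next skin 3.65) and a ratio of the second to the best-hit entry of 2.45 (next 0.00457).

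Liver 13 had the highest krt5 among livers, at 82.9 CPM (next 39.4), and liver 11 the lowest tp63, at 1.29 CPM (next 1.91). Brain 10 had the highest level of the best-hit krt18a.1 entry among brains, at 181 CPM (next 143), and the highest share of counts for the 7 entries, at 0.0733% (next 0.0657%).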

How the results depend on the processing

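Of 549 log2 fold changes computed under alternatives, 508 kept their direction and their side of the threshold, 11 newly passed it, 9 lost it and 21 reversed. The 11 were all of the best-hit krt18a.1 entry, lower in skin than in liver. Among the 9 were limma fits of the second krt18a.1 entry with all libraries kept. They covered skin over brain (adjusted p = 0.512 to 0.620 in limma) and liver over brain (adjusted p = 0.294 to 0.355 in limma). Without scaling, the reversed values were 0.28 for the best-hit krt18a.1 entry in skin over liver and, in liver over brain, -0.71 for krt5 and -0.23 for tp63. On RPKM with limma they were 0.31 (either pseudocount) for that krt18a.1 entry, -0.70 and -0.82 for krt5, and -0.083 and -0.19 for tp63, with a pseudocount of 1 and 0.1. For the second krt18a.1 entry in skin over liver limma gave -0.67 and -0.80, the replicate block -4.92, leaving out skin 7 -6.31, and leaving out skin 7 and liver 14, chosen after seeing the data, -3.40. In skin over brain it was -1.35 with the replicate block and -0.12 without skin 7, with liver 14 in or out. Leaving out single samples gave -6.31 to 3.59 for that entry in skin over liver and -0.12 to 7.19 in skin over brain. Why skin 7 and liver 14 were high for that entry was not tested. Among best bidirectional hits only, 4 of the 7 entries remain. All 4 were called higher in skin over brain and in liver over brain. Of the 12901 entries tested there, 4413 and 4866 were. The share of counts was then 0.446% in skin and 0.0616% in brain. DESeq2 gave no p for the second krt18a.1 entry. Whether a title number marks 1 fish is not given in the labels, so pairing was undecided and the fit without it was kept. Same-numbered liver and brain samples correlated at 0.0828 to 0.185 in their deviations from the tissue means, 3 of 5 pairs above 0.1. Of the 5 livers, 4 correlated best with the brain of their own number, a hint from the data. Skins 13 and 14 correlated at 0.0795 and 0.0834 with the same-numbered livers, 0 of 2 best with their own number. With the brains the values were 0.0304 and 0.261, 1 of 2 best with its own number. With the number as replicate block, 5, 6 and 7 entries were called higher in skin over liver, skin over brain and liver over brain. Of the 16611 entries tested, 4660, 4807 and 5805 were. Numbers 5, 6 and 7 occur only in skin, so in that fit both skin comparisons rest on skins 13 and 14. The test on the genome table was not run, as no gene model could be matched. At 11 to 49 counts of krt4 and 20 to 39 of tp63 per brain library, counting error limits these levels.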
